A study of Homo sapiens with 9 samples.

Results

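The third arrays are 3 of the 9 Affymetrix arrays of a study of HSF-6, a human embryonic stem cell line, with 1 from each of 3 groups. They were chosen by title: the third array of a group carries 2 prime marks, and it was set against the first and second arrays, which carry no mark or 1, giving 3 arrays against 6. The groups were HSF-6(8) control cells, HSF-6(8) cells given butyrate and DZNep (labelled B+DZNep), and HSF-6(S9) cells given the same compounds; they are called control, treated (8) and treated (S9) below. Both sublines derive from 1 line, every group was taken at 11 passages with a last growth period of 6 days, and an untreated HSF-6(S9) group was not analysed here. The labels do not say what the prime marks stand for, nor that the arrays of a group came from separate cultures, so every p-value below measures only how far these samples spread, and that spread may be technical. The comparison asks which genes vary between arrays of 1 group, with the effect of compounds and subline taken out by a term for the group.

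Human embryonic stem cells are held in the pluripotent state by a transcription factor network around POU5F1, SOX2 and NANOG, with support from Nodal, activin and fibroblast growth factor signals. Butyrate inhibits histone deacetylases, and DZNep is known to lower the Polycomb histone methyltransferase EZH2. On this kind of array a probe set is a group of short oligonucleotides that matches a stretch of a transcript, mostly near its 3′ end, and several probe sets can report on the same gene from different ends, exons or introns. The RNA was amplified from its poly(A) tail and labelled with biotin.

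All 9 arrays carried strong signals of defining stem cell markers: the signal ranged over the arrays from 15792 to 37824 for SOX2, from 21802 to 38677 for the RNA-binding protein LIN28A, from 20458 to 40242 for the DNA methyltransferase DNMT3B and from 4306 to 9070 for NANOG. POU5F1 was left out, as each of its probe sets maps to more than 1 gene. Signal is the deposited intensity in linear units, scaled by the authors so that the trimmed mean of every array is near 500, and the array medians lay between 64.8 and 82.9. Precision is limited by how few arrays there are. The control probe sets for 18S ribosomal RNA stood apart on the third arrays: their mean signal was 1194 on the control array, 723 on the treated (8) array and 2149 on the treated (S9) array, against 316 to 513 on the other 6. The 28S controls had means of 2414, 2415 and 1727 on the third arrays and 1166 to 2014 on the others, and the third array had the highest mean of its group in all 3 groups, by a small margin in treated (S9). The ratio of 3′ to 5′ control probe sets, a measure of how complete the amplified RNA is, did not separate the third arrays and ranged over all arrays from 0.976 to 1.21 for GAPDH and from 1.18 to 1.67 for ACTB. The first control array (45893) and the second treated (S9) array (40236) had the brightest 3′ GAPDH controls. The part of the ribosomal RNA signal in the results below was not tested.

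Over all probe sets, more were higher on the third arrays than lower. Of 54613 non-control probe sets, 1769 (3.24%) were higher and 487 (0.892%) were lower on the third arrays, at an adjusted p under 0.05 in limma's moderated test with Benjamini-Hochberg adjustment over all probe sets. The median difference was 1.32 on the log2 scale among the higher probe sets and -1.01 among the lower ones, while the median over all probe sets was -0.00017. Each difference is on the scale of log2 of the signal plus 16, which understates changes of dim probe sets. Probe sets with 1 annotated gene were higher in 3.41% and lower in 1.01% of cases, and those with no annotated gene in 2.73% and 0.478%. All 1769 and all 487 lay above or below both other arrays in every group, as did 11.8% and 9.2% of all probe sets tested. With a low-value filter at the 75th percentile of each array the excess turned, with 1364 higher and 1524 lower. Without the 2 arrays with the brightest GAPDH controls 603 were higher and 47 lower. At the threshold of 0.05 the calls were lost without the third control array: limma then called 0 probe sets, with a smallest adjusted p of 0.0602 and 909 under 0.1. At an unadjusted p under 0.05, 4876 were then higher and 2683 lower. The unadjusted counts were 4924 and 3232 without the third treated (8) array, and 5386 and 4003 without that of treated (S9). So the unadjusted counts differed less between these fits than the calls did. A lost call is not a lost difference. Without that array the largest rise, on KLF13, went from 3.51 to 3.45 and the largest fall, on TAFAZZIN, from -2.30 to -1.98. A larger change was that of KLK10, from -2.17 to -1.45. Leaving out the third array of treated (8) left 742 higher and 64 lower, and leaving out that of treated (S9) left 701 and 260. Leaving out a first or second (8) array gave 1049 higher and 140 lower without the first control array, 979 and 133 without the second, 835 and 93 without the first treated (8) array, and 1185 and 137 without the second.

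**Figure D1:**
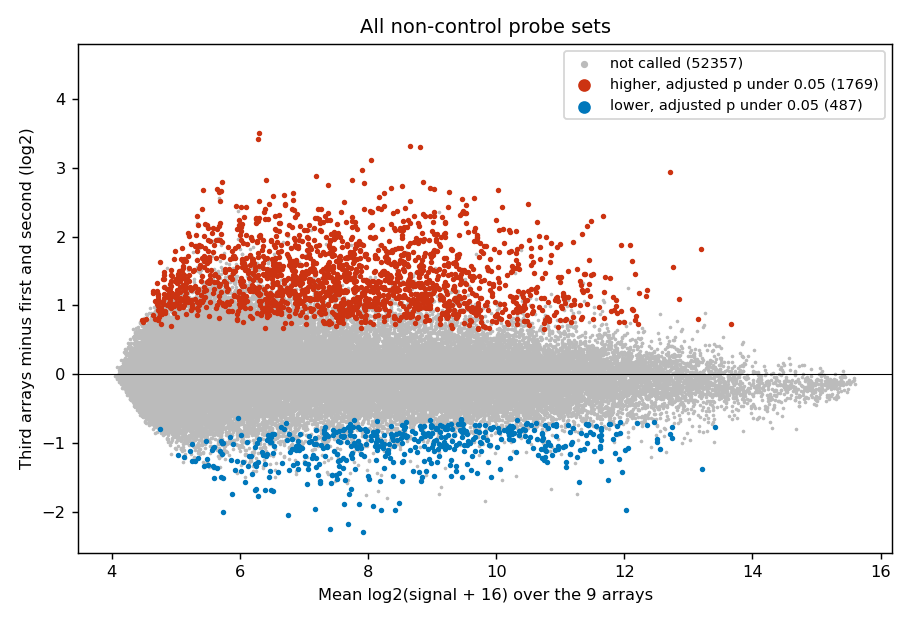
Difference between the third arrays and the first and second arrays (vertical axis, log2) against the mean log2 of signal plus 16 over the 9 arrays (horizontal axis) for 54613 probe sets. Red points are the 1769 probe sets called higher and blue points the 487 called lower. The red points reach 3.51 and the blue points -2.30.

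The difference had a shared part in the 3 groups. Over the 27661 probe sets above the array median on at least 3 of the 6 first and second arrays, a filter that does not use the third arrays, the within-group difference of the third array from the mean of the other arrays correlated between control and treated (8) with r = 0.58, between control and treated (S9) with r = 0.52, and between the treated sublines with r = 0.39. Over all 54613 probe sets the values were 0.40, 0.36 and 0.26. These values are across probe sets, which are not independent replicates, and the groups share no arrays. The median size of the third array's difference was 0.34 in control, 0.35 in treated (8) and 0.31 in treated (S9) on the log2 scale. The second array differed from the first by a median of 0.19 and 0.16 in the (8) groups, but by 0.36 in treated (S9). A difference between single arrays spreads more than a difference from a mean of arrays, even with all arrays equally far apart. In treated (S9), therefore, 0.36 against 0.31 does not show which arrays lay farther apart. In the (8) groups the difference from the mean was larger in spite of this.

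The largest rise was on a probe set of KLF13, and the largest rises were mostly on 1 probe set of a gene rather than on all. This probe set of KLF13, a Krüppel-like transcription factor, had signals of 486, 349 and 321 on the third arrays of control, treated (8) and treated (S9), against 6.36 to 32.3 on the other 6, a difference of 3.51 ± 0.26 (log2, SE, adjusted p = 0.00568). A probe set of TOP1, the DNA topoisomerase that relaxes supercoils, had 2387, 1756 and 1499 against 83.7 to 353 (3.32 ± 0.33, adjusted p = 0.00568). SUPT16H, a subunit of the histone chaperone FACT, had 1617, 1137 and 733 against 54.6 to 164 (3.12 ± 0.20, adjusted p = 0.00568). In each of these the third arrays lay well above every other array, though separation within each group was a condition for being listed. FAM111B, a protease family gene, had 442, 519 and 206 against 2.89 to 46.7 (3.42 ± 0.37, adjusted p = 0.00609). CCDC88A, which encodes the actin-binding protein girdin, had 2674, 1299 and 2484 against 129 to 282 (3.31 ± 0.29, adjusted p = 0.00568), and the actin- and myosin-binding CALD1 had 1170, 1067 and 640 against 33.8 to 215 (2.97 ± 0.39, adjusted p = 0.00884). The other 9 of the 15 largest rises, between 2.69 and 2.88, were the translation initiation factor EIF5B, GPATCH8, the desmosomal cadherin DSC2, the nuclear noncoding RNA MALAT1, the spindle gene ASPM, LUZP1, the ubiquitin ligase gene G2E3, the transcriptional repressor SPEN and the actin-associated ENC1. On the brightest probe set of the gene the difference was -0.06 for CCDC88A, 0.43 for CALD1, -0.39 for GPATCH8, 0.19 for DSC2, 0.14 for ASPM, -0.11 for LUZP1, 0.06 for G2E3 and -0.53 for SPEN, none of them called (adjusted p from 0.0995 to 0.905). FAM111B and ENC1 rose on both of their probe sets with at least 3 of 9 arrays above their median. Their brightest differed by 2.60 (limma, adjusted p = 0.00859) and 1.15 (adjusted p = 0.0446). The call on the brightest ENC1 probe set was made in 1 of the 9 fits that each left out an array. All 15 of the largest rises lost their call without the third control array (adjusted p from 0.0602 to 0.125). EIF5B also lost it without the third treated (8) array (adjusted p = 0.0516), and MALAT1 without the third treated (S9) array (adjusted p = 0.0774). The other 13 kept it without any other single array. All 15 rises passed the low-value filter, at least 3 of 9 arrays above their median, which includes the arrays compared. For KLF13, FAM111B, DSC2 and ENC1 the other 6 signals lay below every array median (64.8 to 82.9). These probe sets thus passed only through the 3 arrays on which they were high. Of 219 probe sets that passed in this way, 158 were called higher.

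The largest fall was on a probe set of TAFAZZIN, the mitochondrial enzyme that remodels cardiolipin, which had 44.9, 40.8 and 153 on the third arrays of control, treated (8) and treated (S9), against 309 to 520 on the others (-2.30 ± 0.32, adjusted p = 0.0101). SIX3, a homeobox gene of the forebrain and eye field, had 23.7, 17.6 and 38.5 against 126 to 177 (-2.05 ± 0.19, adjusted p = 0.00568). TXNIP, the thioredoxin-binding protein induced by glucose, had 1335, 800 and 4248 against 6020 to 6947 (-1.97 ± 0.37, adjusted p = 0.0265). The third arrays lay below every other array in all of these, with treated (S9) nearest to the rest. Separation within each group was again a condition for being listed. The other 12 of the 15 largest falls, between -2.26 and -1.69, were DEPP1, the secreted protease KLK10, the epithelial sodium channel subunit SCNN1G, the early response transcription factor EGR1, LINC00173, N4BP2L1, the intracellular cation channel TMEM38A, CHP2, the methyltransferase METTL21A, PRDM16-DT, the recycling endosome GTPase RAB11B and the actin-bundling protein ESPN. On the brightest probe set the difference was -0.59 for TAFAZZIN, -1.36 for LINC00173, 0.05 for METTL21A and -0.24 for RAB11B. None of these was called (limma, adjusted p from 0.0759 to 0.897). TXNIP fell on 1 of 3 probe sets and N4BP2L1 on 1 of 5, each on its brightest, while SIX3 and ESPN fell on both of theirs. The calls of the 15 falls were less firm. All 15 were lost without the third control array (adjusted p from 0.0602 to 0.226) and 13 without the third treated (8) array (highest adjusted p 0.191). Between 3 and 9 of the 15 were lost on leaving out any other array, with a highest adjusted p of 0.130, and SIX3 was the 1 gene called in 8 of the 9 fits that each left out an array.

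**Figure D2:**
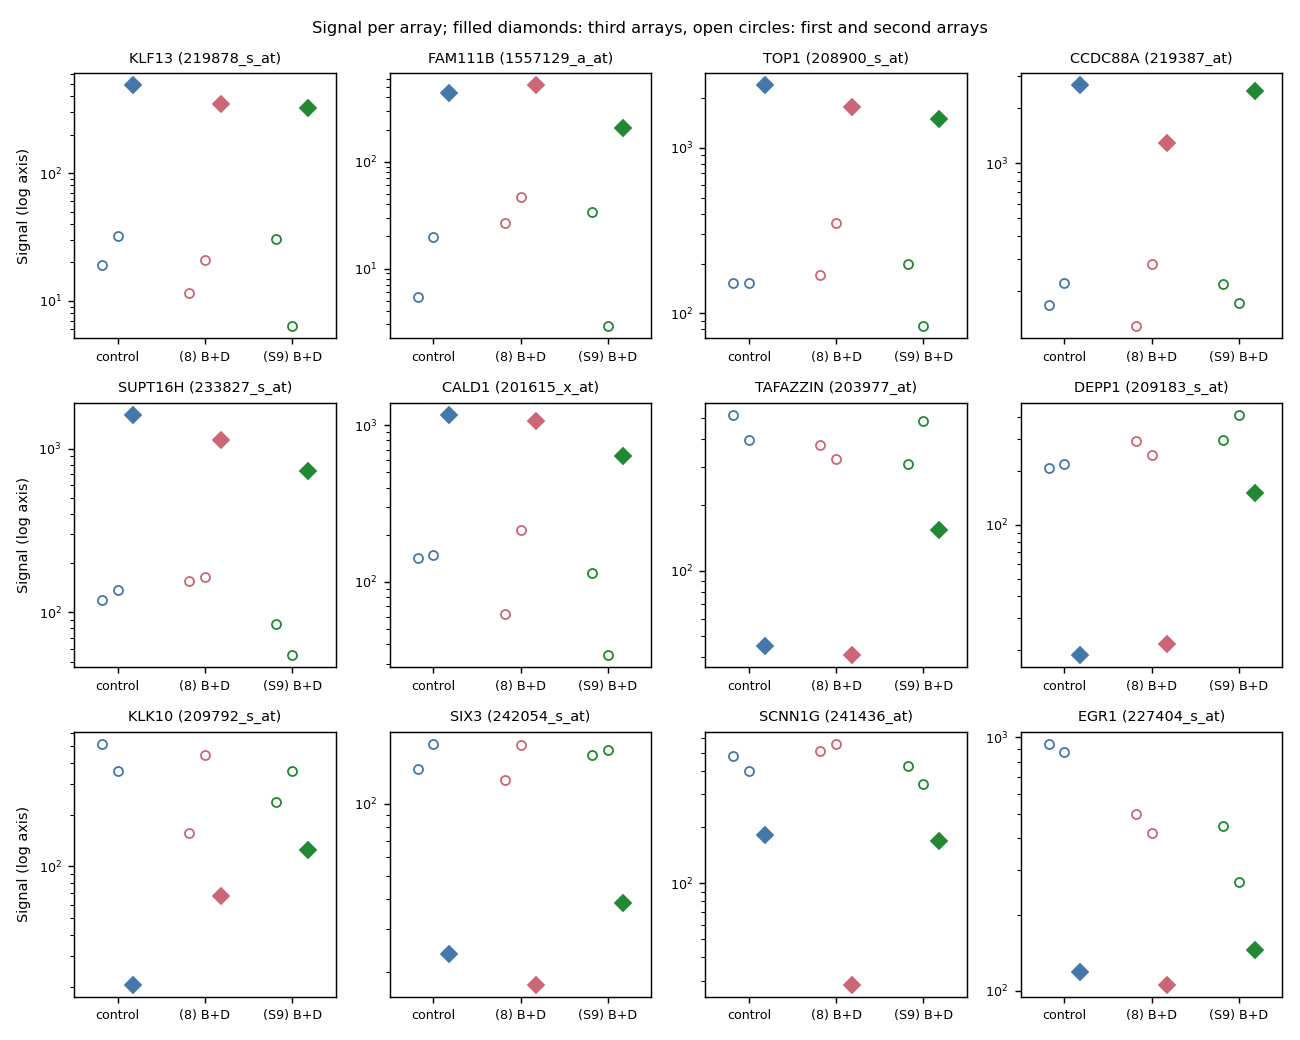
Signal (log axis) on each array for 1 probe set of each of the 6 genes with the largest rises and the 6 with the largest falls, by group (B+D, butyrate and DZNep). Filled diamonds are the third arrays and open circles the first and second arrays; for KLF13 the diamonds sit between 321 and 486 and the circles between 6.36 and 32.3, and for SIX3 the diamonds lie between 17.6 and 38.5 and the circles between 126 and 177.

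Rises were mostly seen on the dimmer probe sets of a gene, while its brightest probe set stayed near its level on the other arrays. When each of 19735 genes was represented by its probe set of highest mean signal, 191 genes (0.968%) were higher and 267 (1.35%) lower, so the excess of rises over falls seen across probe sets was absent. A filter over all 9 arrays would let a dim probe set pass through the third arrays alone, so probe sets were selected and ranked within their gene on the first and second arrays only, a choice made after seeing the data. Among 6185 genes with 2 or more probe sets past that filter, 0.954% of the brightest probe sets were higher, against 6.61% at rank 2 by mean signal, 10.6% at rank 3 and 13.6% at rank 4 or later. The corresponding shares that were lower were 1.79%, 1.46%, 1.06% and 0.44%. With no filter, and ranks over all arrays, the higher shares were 1.2%, 4.96%, 6.68% and 6.06%. Of the 6185 genes, 799 (12.9%) had at least 1 higher probe set, with all of them higher in 7, and in 450 another probe set of the gene had a difference below 0. At least 1 probe set was lower in 195 genes (3.15%), with all of them lower in 18.

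The rise with rank was present in each group. In control the third array was at least 2-fold above the mean of the others for 1.13%, 8.33%, 14.6% and 17.7% of the probe sets at ranks 1, 2, 3, and 4 or later. The shares were 2.15%, 7.53%, 11.2% and 12.5% in treated (8), and 1.76%, 8.1%, 13% and 17.9% in treated (S9). The second array was at least 2-fold above the first for 0.291%, 1.49%, 2.38% and 3.21% in control, and for no more than 2.01% at any rank in the treated groups. In treated (S9), the second array was at least 2-fold below the first for 3.33%, 6.24%, 8.77% and 8.3%, which was also higher at the later ranks. Ranks were set on the first and second arrays and not on the third, so noise on those arrays also enters the ranks; with no filter and ranks over all arrays the third-array shares were 2.63%, 8.73%, 11.8% and 13.1% in control.

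Single genes show how far probe sets of 1 gene parted. The brightest KLF13 probe set had signals of 1360 to 1606 on the third arrays and 1580 to 1904 on the others (-0.23 ± 0.15, adjusted p = 0.471), beside the other probe set's rise of 3.51. The brighter TOP1 probe set had 5027 to 5743 against 4123 to 5173 (0.18 ± 0.15, adjusted p = 0.583), and the brighter SUPT16H probe set 6193 to 7223 against 6714 to 12007 (-0.19 ± 0.20, adjusted p = 0.672). So the same gene gave overlapping ranges on 1 probe set and ranges far apart on another. SOX2, the pluripotency factor, had 4 probe sets past a low-value filter that asks for at least 3 of 9 arrays above their median. Its brightest had 15792 to 23596 on the third arrays and 20649 to 37824 on the others (-0.37 ± 0.21, adjusted p = 0.414). A dimmer one had 4378 to 6910 against 1786 to 2560 (1.45 ± 0.20, adjusted p = 0.00990) and a still dimmer one 1072 to 2063 against 238 to 367 (2.21 ± 0.25, adjusted p = 0.00637). EIF5, a translation initiation factor, rose on 1 of 5 probe sets, from 1214 to 2012 on the first and second arrays to 6573 to 8677 on the third (2.16 ± 0.20, adjusted p = 0.00568), while its brightest differed by 0.18 ± 0.16. These calls were lost without the third control array (adjusted p from 0.0602 to 0.0846), and that of the SOX2 probe set of intermediate brightness also without the third treated (S9) array (adjusted p = 0.0520).

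**Figure D3:**
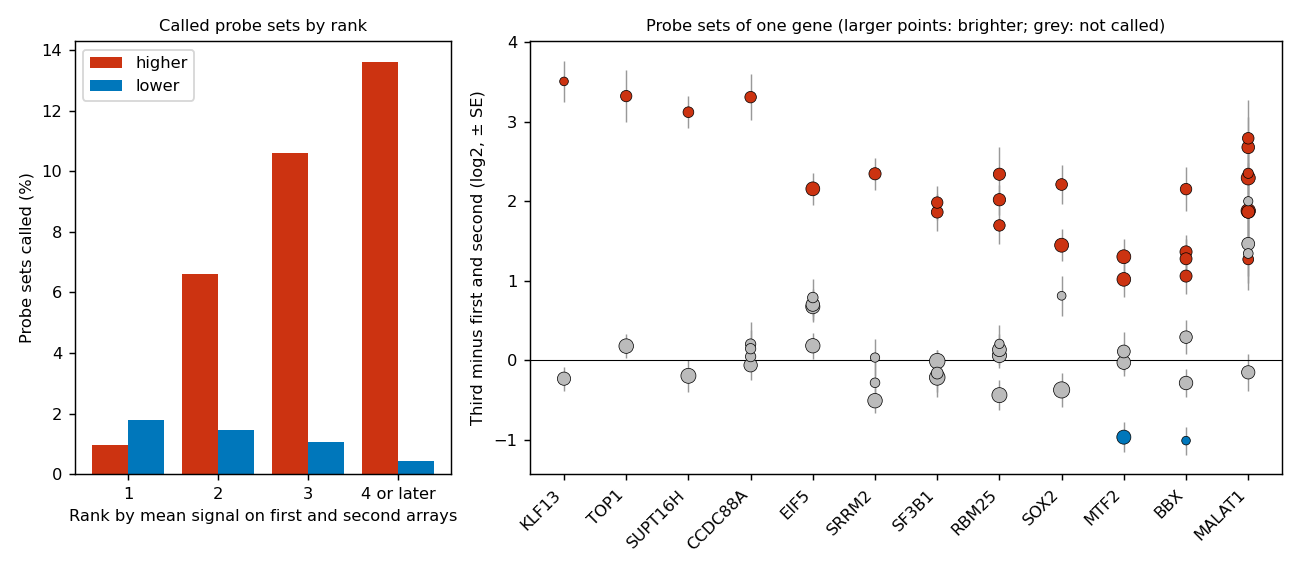
Left, share of probe sets called higher or lower on the third arrays (%) by the rank of the probe set within its gene by mean signal on the first and second arrays, for 6185 genes with at least 2 probe sets past the filter on those arrays; the higher share runs from 0.954% at rank 1 to 13.6% at rank 4 or later. Right, difference of the third arrays (log2 ± SE) for the probe sets of 12 genes with at least 3 of 9 arrays above the median; larger points are brighter, and red, blue and grey are higher, lower and not called.

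Splicing factor genes showed this split in many members. None of 38 splicing factor genes was called on its brightest probe set (limma, adjusted p under 0.05; median difference -0.11, and 0.0031 with quantile normalization, against -0.07 over all genes). Over all their probe sets, with no filter, 27 of 158 (17.1%) were higher, beside 3.41% of all single-gene probe sets. Raised shares were not particular to splicing. The same share was 13.7% for nuclear and small nucleolar host RNAs, 13% for heat shock, 11.9% for apoptosis, 11.4% for pluripotency and 10.8% for ribosome biogenesis genes. It was 1.3% for ribosomal protein genes and 0 for the interferon, hypoxia, trophoblast and HOX lists. With the filter on the first and second arrays 21 of 133 (15.8%) were higher, beside 4.41%. At least 1 higher probe set was present in 16 of the 34 splicing genes with 2 or more probe sets, beside 10.3% of all such genes, and in 12 of 34 past that filter, beside 12.9%; the number of probe sets per gene was not matched. SRRM2, a scaffold of nuclear speckles, had a probe set at 1915 to 2453 on the third arrays and 341 to 543 on the others (2.35 ± 0.20, adjusted p = 0.00568), while its brightest lay at 3374 to 4336 against 4491 to 6409 (-0.51 ± 0.16, adjusted p = 0.122). SF3B1, the core branch-point factor, rose on 2 probe sets by 1.98 ± 0.21 and 1.86 ± 0.23 (adjusted p = 0.00617 and 0.00827), and its brightest differed by -0.21 ± 0.18 (adjusted p = 0.597). RBM25 rose on 3 of 7 probe sets by 1.70 to 2.34, and the helicase DDX17 on 4 of 5 by 1.28 to 2.24, with differences of -0.44 and -0.30 on the brightest. CLK4, HNRNPU, LUC7L3, PNISR, RBM39, RBM5, SON, SRSF4, SRSF6, SRSF7, TRA2A and TRA2B were the other genes with a higher probe set. Without the third control array all 27 of these calls were lost (adjusted p from 0.0602 to 0.216), and 17 without the third treated (S9) array (up to 0.132), among them the RBM25 rise of 2.34 (0.0634) and 3 of DDX17 (0.0516 to 0.0764). Leaving out any other array lost 1 to 9 of them (up to 0.126); the calls of TRA2B and SRSF4 were made in 3 of the 9 such fits, and those of HNRNPU and RBM5 in 4. In the other direction 2 probe sets (1.27%) were lower, beside 1.01% of all single-gene probe sets: 1 probe set of HNRNPD (-1.08 ± 0.19, adjusted p = 0.0216) and 1 of the splicing activator SRSF1 (-1.20 ± 0.21, adjusted p = 0.0211). Both calls were lost without the third control array (adjusted p = 0.140), without the third treated (8) array (adjusted p = 0.109) and without any first or second (8) array (0.0509 to 0.0613).

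The noncoding RNA MALAT1, which collects in nuclear speckles, rose on its brightest probe set too. That probe set had 10523, 8446 and 12674 on the third arrays of control, treated (8) and treated (S9), against 1708 to 4845 on the others (1.88 ± 0.33, adjusted p = 0.0205). In all, 7 of its 11 probe sets were higher, by 1.27 to 2.79, and 1 bright probe set lay at 1064 to 2263 against 1560 to 2088 (-0.15 ± 0.24). Of 13 genes in the list of nuclear and small nucleolar host RNAs, MALAT1 was the only member called on its brightest probe set; the list's median was 0.27, and -0.02 over the 12 members past the filter. The call on the brightest probe set was lost without the third array of control (adjusted p = 0.134) or treated (S9) (adjusted p = 0.0954) and without the first treated (8) array (adjusted p = 0.0548). EIF5B rose on 4 of 6 probe sets, its brightest included, which had 4771 to 5393 against 1302 to 2083 (1.53 ± 0.18, adjusted p = 0.00685, and 0.0675 without the third control array).

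A few genes had probe sets called in both directions, 8 in all. MTF2, a Polycomb-associated protein, had its brightest probe set lower, at 1615 to 2343 against 3069 to 4617 (-0.96 ± 0.19, adjusted p = 0.0306), and another higher, at 4413 to 5540 against 1448 to 2989 (1.30 ± 0.22, adjusted p = 0.0182). BBX, an HMG-box gene, had 4 of 7 probe sets higher and 1 lower, and GNAS, the imprinted gene of the stimulatory G protein, had 2 of 10 higher and 1 lower. The remaining genes were GABPB1-AS1, GARS1-DT, GLG1, PWWP3A and ZNF567. Whether the array design let these probe sets read different transcripts was not tested. The MTF2 calls were lost without the third array of control (adjusted p = 0.158 and 0.124) or of treated (8) (adjusted p = 0.142 and 0.0708), and on leaving out several other arrays (up to 0.0827). All BBX and GNAS calls were lost without the third control array (adjusted p from 0.0709 to 0.221), and the GNAS fall on leaving out any 1 of the 9 arrays.

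The lists below use the brightest probe set of a gene, for which 0.968% of the 19735 genes were higher and 1.35% lower, and the median gene differed by -0.07. Of 21 pluripotency genes measured, 2 rose and 1 fell, and the list's median was -0.37. PRDM14, a repressor that supports pluripotency, had 3471, 2164 and 1152 on the third arrays of control, treated (8) and treated (S9), against 441 to 760 (1.68 ± 0.22, adjusted p = 0.00884). SALL4, a zinc finger factor of the same network, had 5642, 5929 and 6661 against 1899 to 3752 (1.11 ± 0.18, adjusted p = 0.0173). UTF1, a chromatin-associated stem cell factor, had 491, 606 and 425 against 1047 to 1226 (-1.13 ± 0.17, adjusted p = 0.0120). The third arrays did not overlap with the others for any of these. Every called probe set was separate within each group, so that separation adds no support. NANOG did not pass the test, with 8598, 8911 and 4306 against 4915 to 9070 (0.06 ± 0.24, adjusted p = 0.933). Of the 21 genes, 10 lay below both other arrays in every group, beside 9.2% of all probe sets tested. That share was not computed for the brightest probe sets of all genes.

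In the Nodal and TGF-beta pathway, 1 of 23 genes rose and 1 fell (median 0.12, and -0.03 without the 2 arrays with the brightest GAPDH controls). FOXH1, the DNA-binding partner of SMADs that carries the Nodal signal, had 2663, 2178 and 2992 on the third arrays against 4680 to 5947 (-1.07 ± 0.15, adjusted p = 0.0110). SMAD7, an inhibitor of the pathway, had 878, 989 and 482 on the third arrays of control, treated (8) and treated (S9), against 293 to 515 (0.97 ± 0.18, adjusted p = 0.0274); here the treated (S9) value lay within the range of the control arrays. The ligand NODAL (0.71 ± 0.41, adjusted p = 0.408) and its inhibitor LEFTY1 (0.98 ± 0.54, adjusted p = 0.385) did not pass. Without the third control array all calls of these stem cell and Nodal pathway genes were lost (adjusted p up to 0.124). Without the third treated (8) array FOXH1 (adjusted p = 0.0581) and SMAD7 (adjusted p = 0.117) were lost, and without that of treated (S9) SALL4 (0.0717), UTF1 (0.0557) and SMAD7 (0.0527). SALL4 was also lost without the first treated (8) array (0.0526), and SMAD7 without any single first or second (8) array (0.0581 to 0.0741).

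Some lineage and stromal genes were higher. Of 28 endoderm genes 2 rose, with a list median of 0.61, which was -0.16 over the members left by a low-value filter at the 75th percentile of each array. AFP, the fetal liver and yolk sac serum protein, had 198, 917 and 219 on the third arrays of control, treated (8) and treated (S9), against 56.5 to 153 (1.74 ± 0.38, adjusted p = 0.0446), and the thyroxine carrier TTR had 162, 1029 and 468 against 16.3 to 354 (1.70 ± 0.31, adjusted p = 0.0237). For AFP the third arrays lay above all others, while the TTR signal of the third control array lay below that of the treated arrays. Of 23 mesoderm genes SNAI2 rose (1.72 ± 0.39, adjusted p = 0.0491), with 797 on the third treated (S9) array. Of 25 fibroblast and stromal genes 3 rose, the smooth muscle actin ACTA2 (1.51 ± 0.28, adjusted p = 0.0257), the cadherin CDH11 (1.30 ± 0.26, adjusted p = 0.0342) and the surface protein THY1 (1.11 ± 0.23, adjusted p = 0.0380). No gene of the trophoblast (18), endothelial and blood (18) or HOX (22) lists was called, and 1 of 23 neuroectoderm genes, SIX3, fell.

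The calls of these lineage genes rested on many of the arrays. All 6 rises of AFP, TTR, SNAI2, ACTA2, CDH11 and THY1 were lost without the third control array (adjusted p from 0.0709 to 0.145), without the third treated (8) array (0.0850 to 0.167), without the first control array (0.0563 to 0.102) and without the first or second treated (8) array (0.0545 to 0.0972). Without the second control array 5 were lost, and without the third treated (S9) array 5 (adjusted p up to 0.133). The calls of SNAI2 and CDH11 were lost on leaving out any 1 of the 9 arrays (adjusted p from 0.0519 to 0.140). The summed signal of the 28 endoderm markers was 35382 on the third treated (8) array and 11630 to 20717 on the other 8. That of the 25 stromal markers was 100451 there and 47351 to 67536 elsewhere, with the collagens COL1A1 (3789 to 10614) and COL1A2 (1784 to 4804) highest on the third treated (8) array. The fibroblast marker LUM had 120 there and at most 34.3 elsewhere, and DCN ranged from 74.6 to 152. That of 23 mesoderm markers was 15094 there and 4871 to 11361 elsewhere. That of 18 endothelial and blood markers, 6 of them past the low-value filter, was 2783 on the third treated (8) array and 1342 to 2151 elsewhere. For 18 trophoblast markers it was 7470 there, within the 6414 to 8295 of the other arrays. The highest signal on any array was 43.5 for the leukocyte marker PTPRC, 55.7 for the endothelial cadherin CDH5 and 204 for PECAM1. In bulk RNA a larger share of cells of a type and more RNA per cell cannot be told apart. Leaving out the third treated (8) array moved the endoderm median from 0.61 to 0.21 and the stromal median from 0.31 to 0.11.

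**Figure D4:**
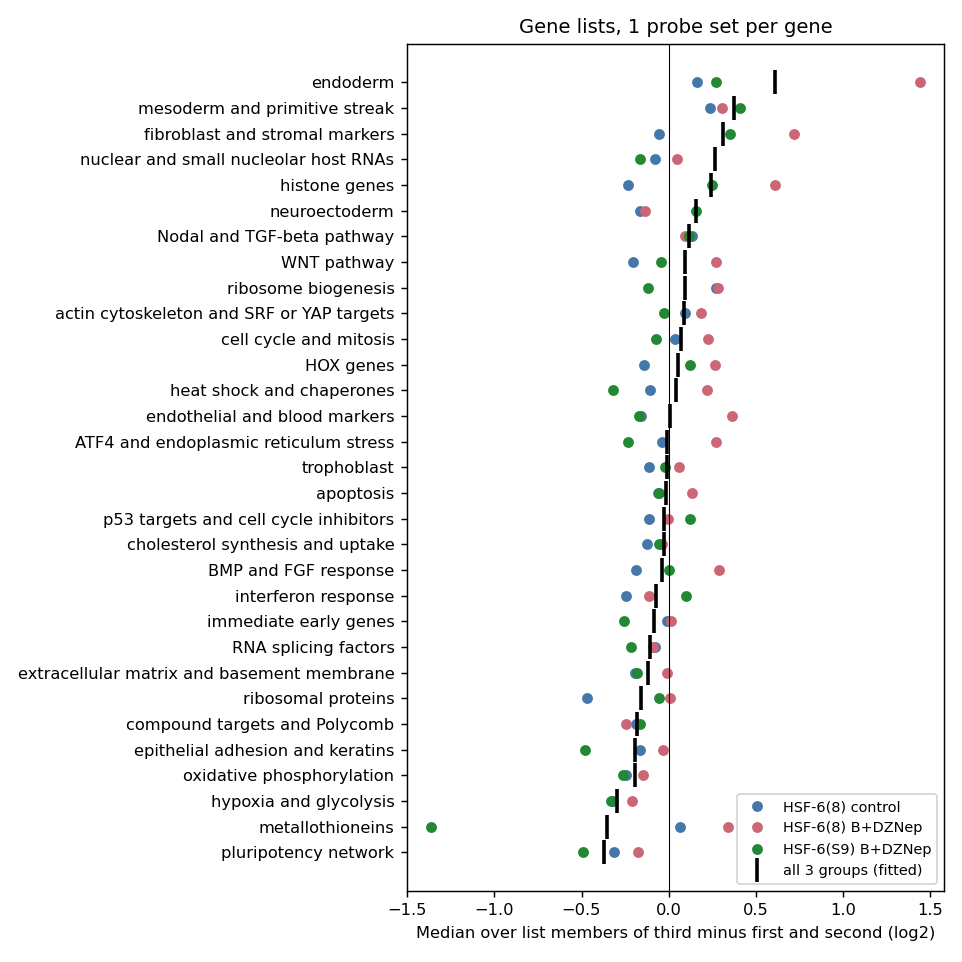
Median difference of the third array from the first and second arrays (log2) over the members of 31 gene lists, with 1 probe set per gene. Coloured points are the 3 groups and black bars the fit over all groups; the endoderm list stands at 1.44 in treated (8) against 0.16 and 0.27 in the other groups, and the metallothionein list at -1.36 in treated (S9).

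Of 30 immediate early genes 3 fell and 0 rose on their brightest probe set, with a median of -0.09 (limma; adjusted p under 0.05). Over all 64 probe sets of the list, 6 (9.38%) were lower in 4 genes and 4 (6.25%) higher in 3 genes, so the calls went both ways. The shares of all single-gene probe sets were 1.01% lower and 3.41% higher. EGR1 had 1463, 1398 and 842 on its brightest probe set on the third arrays against 2083 to 3359 (-1.09 ± 0.17, adjusted p = 0.0150), and 2 of its 3 probe sets fell. FOS, which forms the AP-1 factor with JUN proteins, had 52.6, 139 and 57.7 against 154 to 276 (-1.20 ± 0.26, adjusted p = 0.0411), and TXNIP is given above. FGF2, the growth factor added to most human stem cell media, had 1767, 933 and 733 against 1862 to 2359 (-0.96 ± 0.20, adjusted p = 0.0377). In the same list of 32 BMP and FGF response genes the BMP antagonist GREM1 rose, with 436, 870 and 448 against 33.5 to 328 (1.89 ± 0.39, adjusted p = 0.0351), and EGR1 and SMAD7 were its other called members. Without the third control array these calls were lost (adjusted p from 0.0665 to 0.198). EGR1 was also lost without the third treated (S9) array (0.0663), and FOS, GREM1 and TXNIP on leaving out at least 5 of the other 8 arrays, one at a time (adjusted p up to 0.158). The call of FGF2 was lost on leaving out any 1 of the 9 arrays (adjusted p from 0.0616 to 0.160).

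Few metabolic genes were called. Of 34 hypoxia and glycolysis genes 2 fell and the median was -0.30. Both other arrays lay above the third in every group for 13 genes, beside 9.2% of all probe sets tested. ENO2, an enolase of glycolysis, had 1586, 2842 and 3293 against 4350 to 6235 (-1.11 ± 0.17, adjusted p = 0.0146), and P4HA1, a collagen prolyl hydroxylase subunit induced by hypoxia, had 1627, 1840 and 1854 against 2765 to 3730 (-0.89 ± 0.15, adjusted p = 0.0175). For both genes the third arrays lay below every other array, which within each group held for every probe set called lower. Of 36 oxidative phosphorylation genes 0 were called in limma, on their brightest probe sets (median -0.19, and -0.07 with quantile normalization). In every group 12 lay below, beside the same 9.2%, a share not computed for brightest probe sets alone. Over all probe sets of that list 3 of 78 (3.85%) were higher and 0 lower, and in the cholesterol list 4 of 51 (7.84%) and 0. In the hypoxia list 0 of 75 were higher and 3 (4%) lower. Of all single-gene probe sets 3.41% were higher and 1.01% lower, so the first of these shares was near that of all. Of the 10 metallothionein and zinc genes 0 were called; MT1G, a zinc-binding metallothionein, had 3805 and 4855 on the third control and treated (8) arrays but 914 on that of treated (S9), against 3369 to 6664 (-0.68 ± 0.47, adjusted p = 0.506). None of the cholesterol (23), interferon (36), cell cycle (40), apoptosis (21), WNT (30) or ribosomal protein (35) genes was called on its brightest probe set. Some were called on other probe sets. Over all probe sets, 8 of 67 (11.9%) were higher in the apoptosis list, 6 of 69 (8.7%) in WNT and 6 of 87 (6.9%) in cell cycle. In the ribosomal protein list 1 of 77 (1.3%) was higher and in the interferon list 0 of 63. In each of these lists 0 were lower. The count at an unadjusted p under 0.05 over all probe sets was 6072 higher (11.1%) and 4123 lower (7.55%).

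Stress and growth control genes gave few calls on their brightest probe sets. Of 23 heat shock and chaperone genes the endoplasmic reticulum chaperone HSP90B1 rose, with 6097, 6885 and 4075 against 819 to 2766 (1.44 ± 0.29, adjusted p = 0.0343). Over all probe sets of that list 7 of 54 (13%) were higher and 0 lower, beside 3.41% and 1.01% of all single-gene probe sets. Of 33 ATF4 and endoplasmic reticulum stress genes the cystine transporter SLC7A11 rose (0.93 ± 0.18, adjusted p = 0.0312). Of 26 p53 targets and cell cycle inhibitors the kinase PLK2 (1.10 ± 0.24, adjusted p = 0.0418) and the death receptor FAS (0.86 ± 0.19, adjusted p = 0.0492) rose and GADD45G, a stress sensor, fell (-0.86 ± 0.18, adjusted p = 0.0342). Over all probe sets 1 of 61 (1.64%) was higher and 0 lower in the ATF4 list. In the p53 list 3 of 68 (4.41%) were higher and 1 (1.47%) lower. The calls of ENO2, P4HA1, HSP90B1, SLC7A11, PLK2, FAS and GADD45G were all lost without the third array of control (adjusted p from 0.0952 to 0.225) or of treated (8) (0.0629 to 0.181), and 1 to 6 of the 7 on leaving out any other array (highest 0.133). That of FAS was lost on leaving out any 1 of the 9 arrays (adjusted p from 0.0509 to 0.192).

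Genes of ribosome assembly, chromatin, matrix and adhesion gave further calls. Of 30 ribosome biogenesis genes 3 rose: NIP7, with 2484, 2812 and 1879 against 544 to 1098 (1.48 ± 0.22, adjusted p = 0.0127), UTP20 (1.13 ± 0.23, adjusted p = 0.0325) and LYAR (0.99 ± 0.18, adjusted p = 0.0250). Of 22 histone genes the variant gene H3-3A rose (0.87 ± 0.17, adjusted p = 0.0285). Of 31 compound targets and Polycomb genes EZH2, the methyltransferase that DZNep is known to lower, had 1609, 2619 and 1949 against 1015 to 1370 (0.72 ± 0.16, adjusted p = 0.0498). The third array lay above both others in all 3 groups, as for every probe set called higher. But the EZH2 call was lost on leaving out any 1 of the 9 arrays (adjusted p from 0.0597 to 0.204). AHCY, the enzyme that DZNep inhibits directly, did not pass (-0.27 ± 0.19, adjusted p = 0.524). These calls and that of MTF2 were lost without the third array of control (adjusted p from 0.0896 to 0.168) or of treated (8) (0.0696 to 0.204), and 2 to 5 of the 6 on leaving out any other array (highest 0.126).

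Among 29 matrix genes LOX, which crosslinks collagen, had 343, 815 and 264 against 52.1 to 128 (2.04 ± 0.32, adjusted p = 0.0157), the matrix glycoprotein gene TNC rose (1.16 ± 0.21, adjusted p = 0.0242) and the laminin gene LAMA5 fell (-0.69 ± 0.15, adjusted p = 0.0435). Among 28 epithelial adhesion genes CLDN3, a tight junction claudin, had 243, 421 and 386 against 789 to 1003 (-1.34 ± 0.16, adjusted p = 0.00756), and both of its probe sets fell. CDH2, the neural and mesenchymal cadherin, had 2284, 4152 and 3268 against 1046 to 1860 (1.07 ± 0.15, adjusted p = 0.0100). For LOX and CLDN3 the third arrays stood clear of all others, which within each group held for every called probe set. The calls of these 5 genes were lost without the third control array (adjusted p from 0.0665 to 0.201), and those of LOX (0.0518), CDH2 (0.0535), TNC and LAMA5 (up to 0.157) without the third treated (8) array. TNC and LAMA5 were also lost without a first or second (8) array (up to 0.106), and LAMA5 without the first (0.0660) or the third (0.0996) treated (S9) array.

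Within a single group, the third array was set against 2 others, and limma called 0 probe sets in each group after adjustment. At an unadjusted p under 0.05 there were 3717 higher (6.81%) and 2795 lower (5.12%) in control, 4034 (7.39%) and 2785 (5.1%) in treated (8), and 3693 (6.76%) and 2141 (3.92%) in treated (S9). With a variance trend and robust moderation, 622, 636 and 146 probe sets were called. The test of whether the difference itself varied between groups called 0 probe sets (smallest adjusted p 0.756; 3532, or 6.47%, at an unadjusted p under 0.05) and 0 under every alternative run. The genes below are therefore given as values and were not shown to differ between groups.

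Some endoderm and Nodal genes had far higher signals on the third treated (8) array, given as values for genes most of which were chosen by their p between groups. The median of the whole Nodal and TGF-beta list was not higher there, at 0.10, against 0.14 in control and 0.12 in treated (S9). CER1, a secreted Nodal and BMP antagonist of anterior endoderm, had 4489 there against 188 and 234 on the other treated (8) arrays, and 194 to 558 on the arrays of the other groups. GATA6, an endoderm transcription factor, had 2541 against 281 and 471, and SOX17, another, 977 against 127 and 208. LEFTY1 had 8231 against 1382 and 833, which is near the 8256 to 11324 of the control arrays, and NODAL had 3661 against 763 and 746. The chemokine receptor CXCR4 had 3174 against 412 and 443, the TGF-beta family ligand GDF3 3523 against 521 and 457, and the forkhead gene FOXQ1 1669 against 54.5 and 48.2. NANOG had 8911 against 5605 and 4915, while the noncoding RNA MIAT had 319 against 2999 and 3396. None of these was called, and the unadjusted p for a difference between groups was 0.00013 for CER1, 0.0048 for GATA6 and 0.00028 for FOXQ1.

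The other groups had their own departures. DLK1, an imprinted Notch ligand, had 310 on the third control array against 2802 and 2795, and 3047 on the third treated (8) array against 11611 and 9037. On the third treated (S9) array it had 30268, against 11643 and 14606, so the direction was opposite there (unadjusted p for the difference between groups 0.00021). The dimmer of 2 probe sets of CAV1, the coat protein of caveolae, had 2497 against 368 and 414 in control and 2226 against 265 and 304 in treated (8), but 381 against 321 and 304 in treated (S9). A dim probe set of the IGF-binding protein gene IGFBP5 had 4619 on the third treated (S9) array against 246 and 179, 1143 on that of treated (8) against 232 and 213, and 183 on that of control against 68.0 and 66.3. Over all groups these CAV1 and IGFBP5 probe sets were called higher (limma, adjusted p = 0.0492 and 0.0234). The calls were made in 1 and 4 of the 9 fits that each left out an array. On the brightest probe set the difference was 1.15 for CAV1 (adjusted p = 0.173) and 0.22 for IGFBP5 (adjusted p = 0.869).

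**Figure D5:**
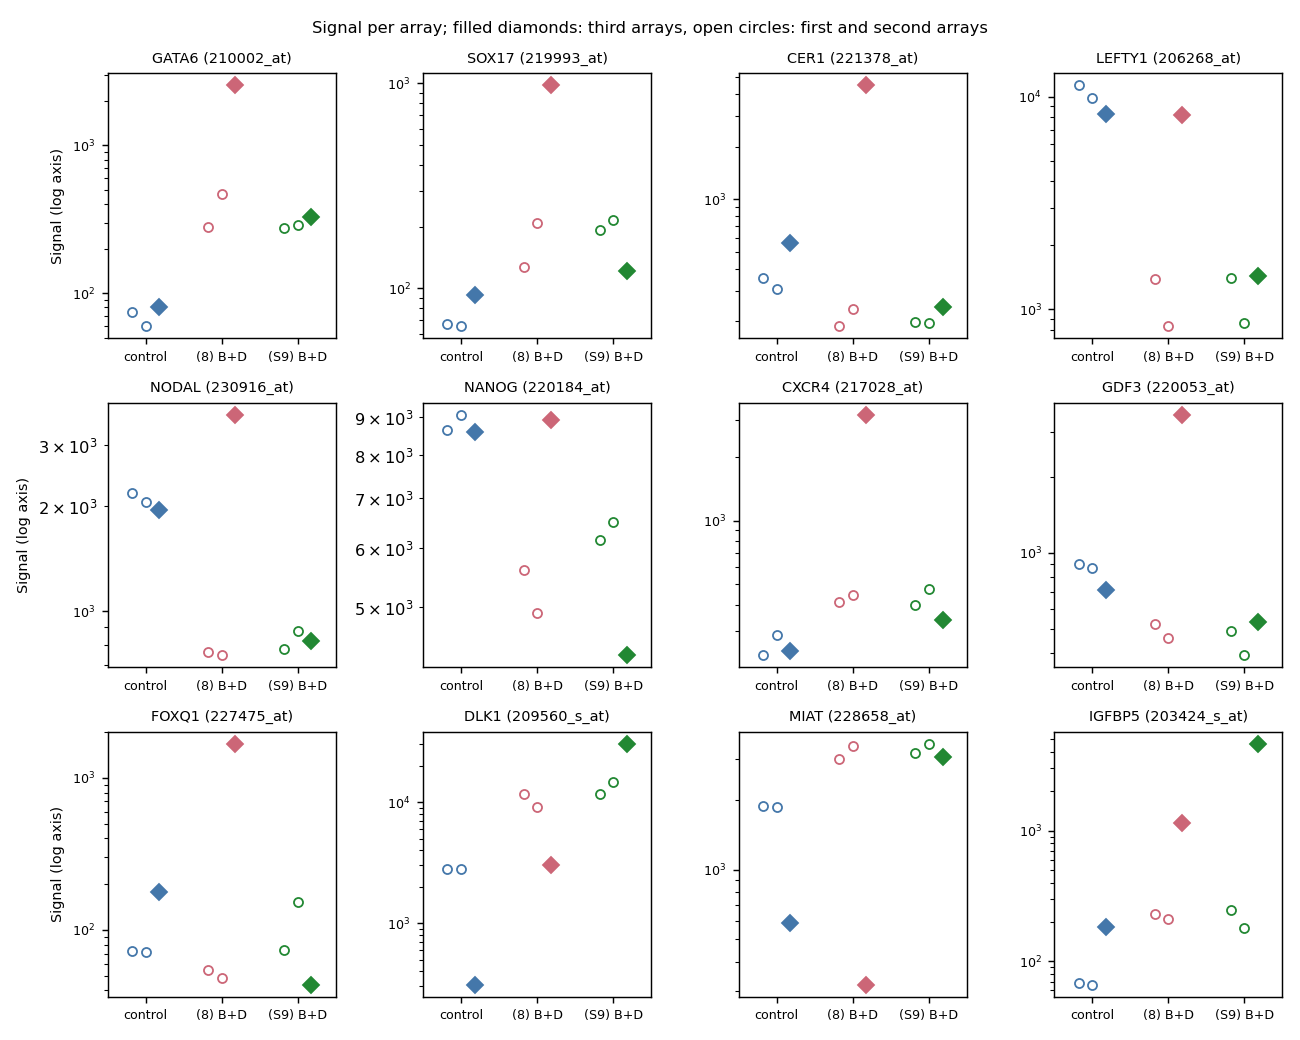
Signal (log axis) on each array for 12 genes whose signal on the third array departed in 1 or more groups, shown as values (B+D, butyrate and DZNep). Filled diamonds are the third arrays and open circles the first and second arrays; CER1 reaches 4489 on the third treated (8) array, and DLK1 runs from 310 in control to 30268 in treated (S9).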

How the data were processed

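The authors deposited 1 linear signal intensity for each probe set, made with Affymetrix Expression Console and MAS5 per the submitters' processing notes. Versions were not given in the sources used here and detection calls were not used, so a dim signal cannot be told from background. MAS5 scales each array, and the table held 54675 probe sets, 62 of them controls. Genes came from the platform annotation, updated through a RefSeq table: 41091 probe sets had 1 gene (41037 with a current symbol, 54 with no match), 1801 several and 11721 none.

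To each value 16 was added before taking log2. The 9 arrays entered limma 3.58.1 in R 4.3.3 (lmFit, eBayes without trend, not robust) with terms for group and for the third arrays (5 residual and 3.25 prior degrees of freedom), two-sided, with Benjamini-Hochberg adjustment over 54613 probe sets. A second model had 1 such term per group (3 residual degrees of freedom). The steps were checked on simulated data. A gene in a list stands by its brightest single-gene probe set. The low-value filter asked for at least 3 of 9 arrays above their own median, and for shares by rank and correlations, an alternative chosen after seeing the data, for at least 3 of the 6 first and second arrays.

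Named were the 15 largest rises and falls called and separate in every group, up to 4 called members per list or else the 2 largest changes as values, the 10 smallest p within groups and between groups, and POU5F1, SOX2, NANOG, LEFTY1, NODAL, GATA6, TTR, FN1, EZH2 and AHCY. Other genes and probe sets (SOX17, the splicing factors, and further probe sets of named genes) were chosen after their values were seen. The arrays compared and the 31 lists were chosen with earlier results of these data known. Alternatives covered the number added, filters, scaling, moderation, weights, group term, and leaving out arrays or groups.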

Additional observations from a re-analysis of the deposited data

How the results depend on the processing

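The main counts were 1769 higher and 487 lower probe sets. They became 713 and 111 with 1 added before log2, and 2875 and 1401 with 64 added. The lower count became 1516 with the filter at the array median (2649 higher), 1524 with the filter at the 75th percentile (1364 higher, fewer than lower), 1443 with trend and robust moderation, 741 with arrays centred on their medians (1270 higher, where the median of all probe sets moved to -0.11; 1479 and 663 with quantile normalization) and 251 when at least 2-fold was required. They were 1070 and 273 as the average of within-group differences and 122 and 146 with 1 probe set per gene tested. Leaving out each array in turn gave 0 to 1598 higher and 0 to 442 lower. Leaving out all arrays of a group gave 0 and 0 each time, with 6 arrays in the fit. The smallest adjusted p was then 0.120 without control, 0.0577 without treated (8) and 0.0524 without treated (S9), and the unadjusted counts were 4635 and 2326, 4469 and 2557, and 6138 and 4774. Without the 2 arrays with the brightest GAPDH controls, an alternative chosen after seeing the data, they were 603 and 47. Within control, treated (8) and treated (S9), where the main model called 0, there were 433, 371 and 14 calls with 64 added, 521, 368 and 0 with the filter at the median, 900, 1217 and 430 with that at the 75th percentile, and 622, 636 and 146 with trend and robust moderation. Apart from fewer probe sets or arrays, the cause of these shifts was not tested. No named gene that was called changed direction in any alternative. The medians of list differences moved beyond the spread of the 3 groups in 73 recomputed values and stayed within it in 671. No paired analysis was possible because the replicate numbers are what is compared and so cannot also be a block; the group term compares arrays within their group.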
